A study of Danio rerio with 9 samples.

Results

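Rhombomere 2 (r2) and rhombomere 4 (r4) of unmanipulated zebrafish embryos were compared here on microarrays, using the 3 arrays titled normal r2 and the 3 arrays titled normal r4, which are 6 of the 9 arrays of the series. The remaining 3 arrays carried Hoxb1a-deficient r4, from embryos that had received a morpholino against Hoxb1a. They entered the estimate of the spread. Where the experiment was fitted as a block, they also entered the experiment terms and so can shift the difference between r2 and r4. All embryos were of an islet-1 GFP transgenic strain and were dissected at 19 to 20 hours post fertilization (hpf). Every sample pooled tissue of 8 to 10 embryos, cut as a thick transverse section that contained the rhombomere, and the RNA was amplified before it was labelled. The study took r2 as a second tissue without Hoxb1a. The samples came from 3 experiments: experiment 1 had no r2 sample, experiment 2 had 1 r2 and 1 r4 sample, and experiment 3 had 2 r2 samples, called 3a and 3b, and 1 r4 sample.

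Rhombomeres are the transient segments of the embryonic hindbrain, and each takes its identity from the Hox genes and other transcription factors that it expresses. Hoxb1a marks r4, from which the facial motor neurons arise, and paralogous group 2 is the most anterior Hox group of the hindbrain, with hoxa2b reaching into r2. r2 has no Hox gene of group 1 and gives rise to trigeminal motor neurons. In front of r2 lie r1 and the isthmus, the signalling centre between midbrain and hindbrain, and the otic vesicle lies beside the hindbrain around r5.

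Levels are given as multiples of the array median, the scale of the deposited values, so that a probe under 1 is dimmer than the median probe of its array and its background was not separated from signal. A fold against such a group may understate the difference. A fold whose brighter group holds a value at the top of its array's range understates it. Differences are log2 values, r2 minus r4, with the standard error (SE) of the fit, and adjusted p-values come from limma with Benjamini-Hochberg adjustment over 16227 probes, with a threshold of 0.05. Each fit was also run with the experiment as a fixed replicate block, named here the blocked fit. Precision is limited by the few arrays, and the p-values measure the spread between these pooled samples, of which the r2 samples stand for 2 experiments. The r4 array of experiment 1 stood apart from the other r4 arrays, with an at least 2-fold difference from their mean on 18.7% of the probes, against 2.1% between the r4 arrays of experiments 2 and 3. Between r2 samples 3a and 3b 0.604% of the probes differed by that much, and 4.14% did between r2 sample 2 and the mean of 3a and 3b. In experiment 1 the upper quartile was 6.86 for r4 and 6.15 for Hoxb1a-deficient r4, against 3.64 to 4.75 on the other arrays. Some unblocked differences exceeded those of both experiments with r2, such as b3gnt7l (-3.80, against -3.23 and -3.24). Others did not, such as cldn7b (-4.47, against -2.90 in experiment 2 and -4.61 in experiment 3).

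In all, 22 probes were higher in r2 (0.136% of those tested) and 72 were lower (0.444%), with 667 at an unadjusted p under 0.05. Of the 22 higher probes 9 carried 1 gene symbol, and of the 72 lower ones 45 did. The median log2 fold change was 1.98 over the higher probes and -2.39 over the lower ones, against 0.08 over all probes tested. The blocked fit called 124 probes as higher in r2 (0.764%) and 152 as lower (0.937%), and it kept the 94 with their direction. Values of r2 and r4 did not overlap on 8.76% of the probes, all 94 called ones among them, which the test on the same arrays largely fixes. Among all named genes, 0.168% were called higher and 0.840% lower without the block, and 0.952% and 1.55% with it. The gene lists used below were chosen with earlier results of these data known, so their shares of calls describe and do not test.

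The gene hoxb1a was examined first, as the check of the labels. Its level was 0.774 in r2 of experiment 2 and 0.590 and 0.567 in r2 samples 3a and 3b, against 3.02, 2.42 and 1.88 in r4 of experiments 1, 2 and 3. All r2 arrays lay under the array median and all r4 arrays above it. The difference was -1.91 ± 0.32 (SE, n = 3 arrays a group, adjusted p = 0.0285), and it was -1.60 ± 0.16 in the blocked fit (adjusted p = 0.00137). The call was lost when any 1 of the 6 arrays was left out, with adjusted p-values from 0.0628 without r4 of experiment 3 to 0.178 without r2 sample 3b.

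The genes otx2b and fgf8a, of midbrain and isthmus in front of the hindbrain, were higher in r2. The homeobox gene otx2b, which specifies forebrain and midbrain and ends at the isthmus, had levels of 5.09 in r2 of experiment 2, 11.7 in sample 3a and 21.2 in sample 3b, against 0.762, 1.02 and 1.48 in r4 of experiments 1, 2 and 3. Sample 3b was the highest and r2 of experiment 2 the lowest r2 array, and every r2 array stood above every r4 array. Its difference was 3.37 ± 0.46 (adjusted p = 0.00749), and the call was lost only without sample 3a (adjusted p = 0.0517) among the 6 fits that left out an array. The Fgf ligand gene fgf8a, a signal of the isthmus and, earlier in development, of r4, had levels of 3.91, 5.69 and 4.80 in r2 and of 1.44, 0.984 and 0.802 in r4. Its difference was 2.19 ± 0.31 (adjusted p = 0.00907), and adjusted p was 0.0583 without r4 of experiment 3, 0.0700 without sample 3a and 0.0580 without sample 3b.

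A further 2 isthmus genes passed in the blocked fit only. The gene cnpy1, a regulator of Fgf signalling at the boundary of midbrain and hindbrain, had levels of 3.06, 5.46 and 4.40 in r2, against 1.63, 0.710 and 1.14 in r4. The groups did not overlap, and the difference was 1.94 ± 0.39 without the block (adjusted p = 0.0724) and 2.19 ± 0.25 with it (adjusted p = 0.00228). For en2a, an engrailed transcription factor gene of the same region, r2 had 1.39, 2.79 and 2.65 and r4 had 1.51, 0.853 and 1.14. Here r4 of experiment 1 overlapped with r2 of experiment 2, and the blocked difference was 1.00 ± 0.18 (adjusted p = 0.0314, against 0.690 without the block).

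Among 14 measured isthmus and r1 genes, 1 rose in the unblocked fit (7.14%) and 3 in the blocked fit (21.4%). Of all named genes 0.168% and 0.952% rose in these fits. None of the 14 fell in either fit, and their median difference was 0.40, with 0.18 in experiment 2 and 0.46 in experiment 3. Their summed levels overlapped, at 115 to 158 in r2 and 139 to 165 in r4. Among 19 measured forebrain and midbrain genes otx2b was the 1 that rose (5.26% in both fits). The median difference of this list was 0.16 without the block and -0.06 with it. It was -0.01 in experiment 2 and -0.07 in experiment 3. Most of the list's other genes lay near or under the array median in both groups, such as otx1, with 0.609 to 0.763 in r2 and 0.470 to 0.768 in r4. The midbrain gene dmbx1a did not pass: it had levels of 4.29, 8.85 and 21.5 in r2, highest in sample 3b as otx2b was, against 6.92, 4.67 and 6.45 in r4. The isthmus genes gbx2 (5.66 to 19.4 in r2, 4.95 to 20.5 in r4) and pax2a (3.85 to 4.89 in r2, 3.65 to 14.9 in r4) overlapped between the groups, as did gbx1 of the anterior hindbrain (75.7 to 131 in r2, 111 to 129 in r4). In these bulk sections, fewer cells of a type and less RNA per cell cannot be told apart, and whether the otx2b and fgf8a signal came from r2 or from tissue beside it in the section was not tested.

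**Figure D1:**
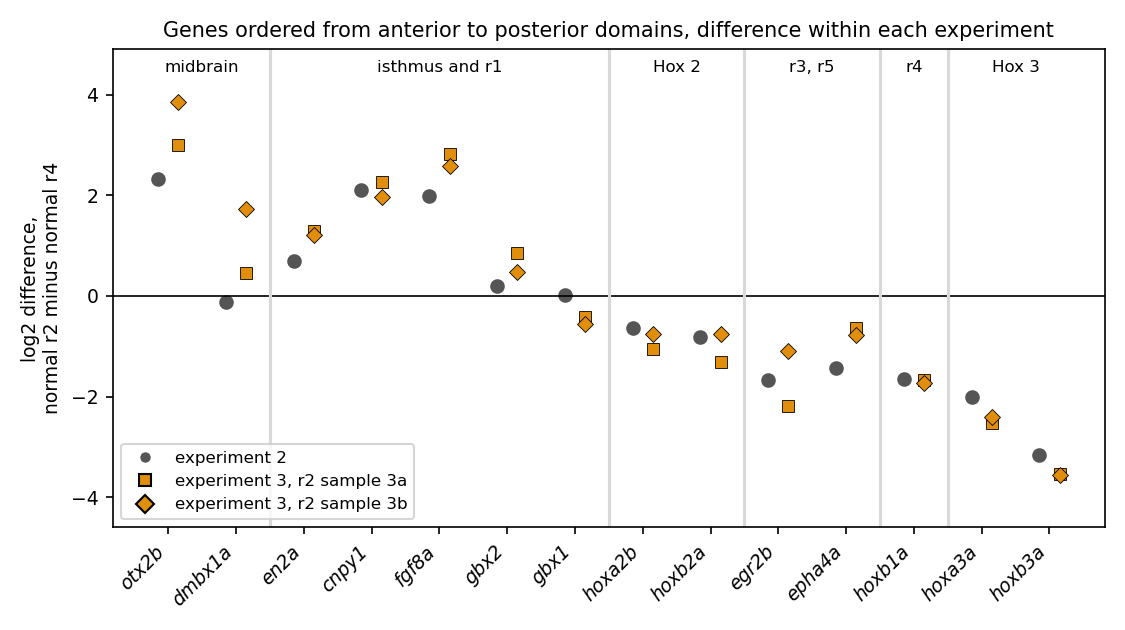
The log2 difference, normal r2 minus normal r4, of 14 genes ordered from anterior to posterior domains, with 1 point for experiment 2 and 1 for each of the r2 samples of experiment 3, each set against r4 of its own experiment. The points of otx2b, en2a, cnpy1 and fgf8a lie above 0, those of hoxa2b, hoxb2a, egr2b, epha4a, hoxb1a, hoxa3a and hoxb3a lie below 0, and those of dmbx1a and gbx1 lie on both sides of it.

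The group 3 genes hoxb3a and hoxa3a and egr2b, a segment gene of r3 and r5, were lower in r2. The gene hoxb3a, a Hox gene of r5 and more posterior segments, had levels of 0.752, 0.626 and 0.620 in r2, against 34.9, 6.76 and 7.29 in r4. All r2 arrays were below the median and r4 of experiment 1 was far above the other r4 arrays, so that the difference was -4.17 ± 0.76 (adjusted p = 0.0412) without the block and -3.34 ± 0.37 (adjusted p = 0.00228) with it. The call was lost when any 1 array was left out (adjusted p from 0.0515 without r4 of experiment 2 to 0.191 without sample 3b). For hoxa3a, a second group 3 gene of that region, r2 had 0.668, 0.510 and 0.556 and r4 had 5.28, 2.67 and 2.95. This difference of -2.59 ± 0.29 (adjusted p = 0.00262) was called in all 6 fits that left out an array, with adjusted p of at most 0.0244.

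The zinc finger gene egr2b (krox20), which specifies r3 and r5 on either side of r4, had levels of 47.8, 24.7 and 52.3 in r2 and of 124, 152 and 112 in r4. The value of 112 lay within 0.1% of the highest value of its array, which is read as saturation. Levels in r2 were thus lower than in r4 but far above the array median. The difference was -1.70 ± 0.30 (adjusted p = 0.0363), and the call was lost without any 1 array (adjusted p from 0.0639 without sample 3b to 0.121 without r4 of experiment 2). The Eph receptor gene epha4a, a target of egr2b in the mouse, had 4.80, 4.75 and 4.35 in r2 and 22.9, 13 and 7.41 in r4, without overlap, and did not pass either fit (-1.49 ± 0.55, adjusted p = 0.844, and 0.179 with the block). Summed over 7 measured segment genes of r3, r5 and r6, the levels were 39.8 to 66.2 in r2 and 130 to 176 in r4, of which egr2b alone made up 24.7 to 52.3 in r2 and 112 to 152 in r4, and the part of r3 and r5 tissue in the r4 sections was not tested.

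Of the 5 measured Hox genes of groups 1 and 2, hoxb1a fell (20% in both fits) and 4 did not pass. The gene hoxa2b had levels of 12.8, 5.86 and 7.22 in r2 and of 30.2, 19.9 and 12.2 in r4, and hoxb2a had 1.08, 0.591 and 0.873 in r2 and 2.62, 1.90 and 1.48 in r4. Neither passed a fit (adjusted p = 0.959 and 0.624, and 0.1 and 0.116 with the block). Of 12 genes of groups 3 to 5, hoxb3a and hoxa3a fell and none rose. Their median difference was 0.19 without the block and 0.03 with it, with 0.02 in experiment 2 and -0.06 in experiment 3. The share that fell was 16.7% in both fits, against 0.840% of all named genes without the block and 1.55% with it. The gene hoxb5a was above the median on all 6 arrays, with 3.42, 11.3 and 13.8 in r2 and 1.76, 3.42 and 6.47 in r4, and did not pass (adjusted p = 0.959). None of 29 genes of groups 6 to 13 and none of 12 Hox cofactor genes passed either fit.

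**Figure D2:**
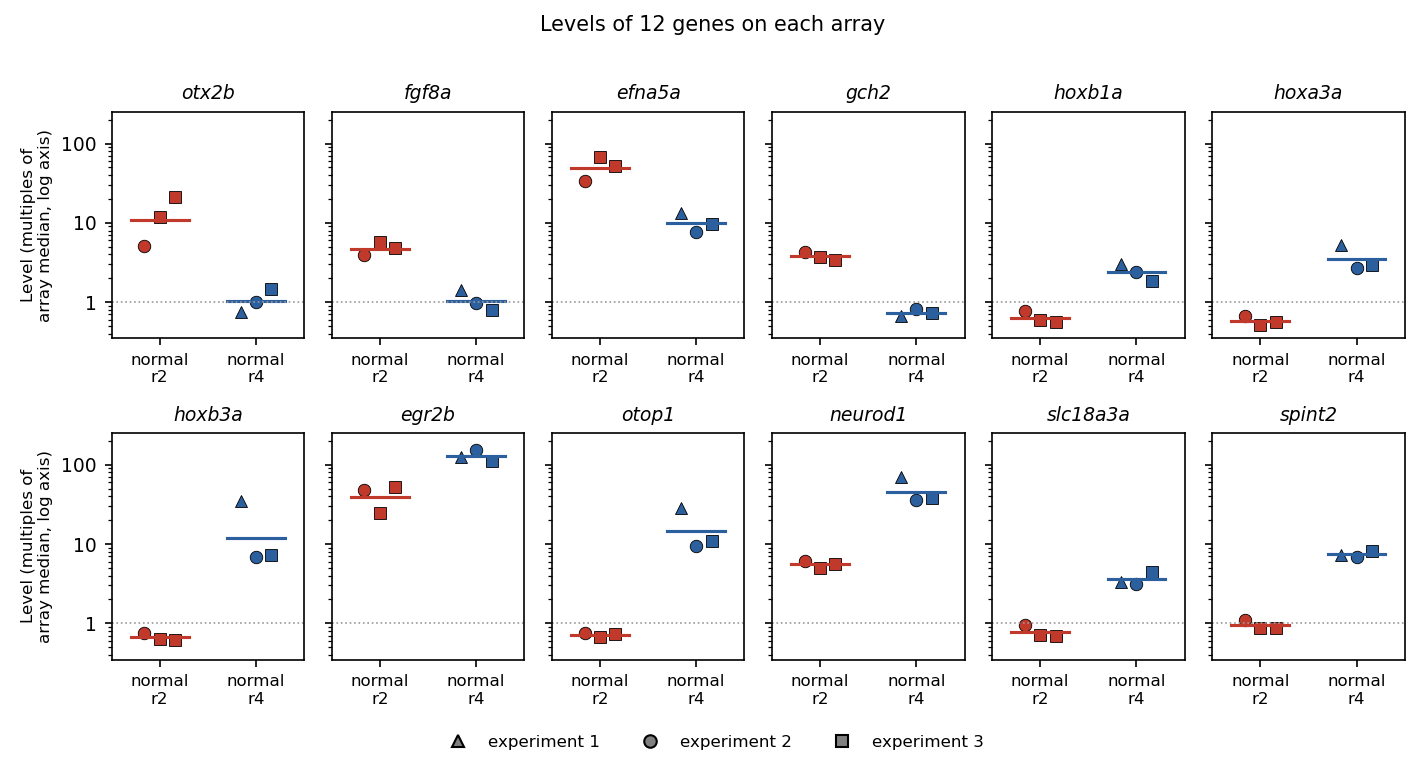
Levels of 12 genes called between normal r2 and normal r4 on each of the 6 arrays, as multiples of the array median on a log axis. Each panel has normal r2 left of normal r4, symbols give the experiment, bars give the mean on the log scale and the dotted line is the array median. The groups do not overlap in any panel, and hoxb1a, hoxa3a, hoxb3a, otop1 and slc18a3a lie under the median on every r2 array.

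Genes of the otic vesicle, the epithelial sac that forms the inner ear, made up the largest group of lower genes among the lists examined. Of 25 measured otic genes 9 fell in r2 (36.0%) and none rose, the same counts in both fits, against 0.840% of all named genes that fell in the unblocked fit. As the list was chosen with earlier results of these data known, this share is not a test. The median difference was -0.76 without and -0.54 with the block, against 0.04 over all named genes in both fits. The gene otop1, which is needed to form otoliths, had levels of 0.763, 0.680 and 0.724 in r2, against 28.8, 9.35 and 11.1 in r4. No r2 array reached the median, and the difference was -4.32 ± 0.45 (adjusted p = 0.00163).

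The homeobox genes dlx3b and dlx4b are early genes of the otic placode. In r2 dlx4b had levels of 1.34, 1.54 and 1.04, against 38.0, 11.2 and 20.5 in r4 (-4.00 ± 0.41, adjusted p = 0.00161). For dlx3b the levels were 1.28, 1.47 and 1.64 in r2 and 18.4, 5.21 and 16.7 in r4 (-3.01 ± 0.46, adjusted p = 0.0160). Both lay near the median in r2. The call on dlx3b was lost in 5 of 6 fits that left out an array, all but the one without r4 of experiment 2 (adjusted p from 0.0563 without r4 of experiment 1 to 0.0832 without r4 of experiment 3). The claudin gene cldnj, which is expressed in the zebrafish ear, had 0.695, 0.718 and 0.746 in r2 and 9.35, 4.87 and 8.45 in r4 (-3.34 ± 0.28, adjusted p = 0.000765).

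The extracellular matrix gene tnn had levels of 8.27, 6.49 and 3.45 in r2 and of 89.1, 29.2 and 61.2 in r4, with a difference of -3.25 ± 0.46 (adjusted p = 0.00907, lost without sample 3a at 0.0517 and without r4 of experiment 3 at 0.0547). The transcription factor gene gata3, active in the ear and in r4, had 0.870, 0.766 and 0.716 in r2 and 10.1, 4.45 and 4.19 in r4 (-2.88 ± 0.38, adjusted p = 0.00744). The 3 other otic genes that fell, epcam, six4b and eya1, also stand in other lists and are described with them. The calls on otop1, dlx4b, cldnj and gata3 remained in all 6 fits that left out an array. Not all otic markers were called. The gene stm, of the otolith matrix, had 0.749 to 0.809 in r2 and 0.824 to 1.91 in r4, lower in r2 without overlap, and did not pass. The early placode gene pax8 was below the median on every array. Summed over the list, the levels were 57.1 to 129 in r2 and 137 to 462 in r4. These sums include the 9 genes that fell, with tnn alone at 3.45 to 8.27 in r2 and 29.2 to 89.1 in r4. They therefore do not show that the other members were lower. The part of attached otic tissue in these differences was not tested.

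Genes of cranial ganglia and the placodes that form them were lower as well. Of 16 measured genes 4 fell without the block, 6 fell with it (37.5%, against 1.55% of all named genes) and none rose. This list, too, was chosen with earlier results of these data known. The median difference was -0.41 without and -0.16 with the block, and it was -0.23 in experiment 2 and -0.19 in experiment 3. The proneural gene neurod1, expressed by neuroblasts of the cranial ganglia, had levels of 6.1, 4.94 and 5.58 in r2 and of 69.4, 35.5 and 37.6 in r4. The r2 arrays lay close together, and the difference was -3.04 ± 0.43 (adjusted p = 0.0101, lost without sample 3a at 0.0673 and without sample 3b at 0.0550).

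Members of the Eya family and six4b, partners in placode development, fell. The gene six4b had levels of 1.76, 2.18 and 1.76 in r2 and of 26.5, 10.6 and 10.3 in r4 (-2.91 ± 0.42, adjusted p = 0.0101). For eya4 these were 1.29, 1.16 and 1.19 in r2 and 6.98, 3.95 and 7 in r4 (-2.25 ± 0.30, adjusted p = 0.00749). For eya1 they were 2.62, 3.35 and 2.74 in r2 and 22.2, 7.04 and 12.7 in r4 (-2.12 ± 0.40, adjusted p = 0.0493). All 3 genes were separated between the groups on every array. Without 1 array the call on eya4 was lost in 1 fit (sample 3a, adjusted p = 0.0524), that on six4b in 3 fits (sample 3a at 0.0517, r2 of experiment 2 at 0.0575, sample 3b at 0.0599), and that on eya1 in all but the fit without r4 of experiment 2 (adjusted p from 0.109 without r4 of experiment 1 to 0.256 without sample 3b).

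In the blocked fit six4a and prdm12b fell too. The gene prdm12b, a regulator of sensory neurons, had levels of 9.29, 7.84 and 10.7 in r2 and of 37.8, 18.7 and 24.1 in r4, with a blocked difference of -1.28 ± 0.17 (adjusted p = 0.00564, against 0.0632 without the block). For six4a the levels were 0.806, 0.641 and 0.619 in r2 and 2.31, 1.26 and 1.2 in r4 (-0.85 ± 0.16 with the block, adjusted p = 0.0360). Other genes of sensory neurons did not pass: isl1a, of sensory and motor neurons alike, had 6.74, 7.20 and 7.33 in r2 and 8.73, 5.65 and 5.47 in r4, and pou4f2 and p2rx3a were below the median on every array. The list summed to 34.7 to 37.6 in r2 and to 91.5 to 184 in r4. These sums include the 6 genes that fell with the block, with neurod1 alone at 4.94 to 6.1 in r2 and 35.5 to 69.4 in r4. They therefore do not show that the other members were lower.

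Genes of epithelial cells and their junctions formed a further lower group. Of 19 measured claudin and tight junction genes 3 fell without the block and 4 with it, of 23 skin and periderm genes 4 and 5 fell, and none of either list rose. Among all named genes 0.840% fell without and 1.55% with the block, and these lists were also chosen with earlier results known. Both lists had a median difference of -0.26 without the block. In the claudin list the median was -0.05 in experiment 2 and -0.48 in experiment 3 (-0.40 with the block), and in the skin list it was -0.11 in experiment 2 and -0.62 in experiment 3 (-0.30 with the block). The claudin gene cldn7b had levels of 2.05, 1.23 and 1.35 in r2 and of 78.1, 15.2 and 31.6 in r4 (-4.47 ± 0.57, adjusted p = 0.00641). The claudin gene cldn3c had 1.11, 0.526 and 0.649 in r2 and 18.2, 4.23 and 11.3 in r4 (-3.72 ± 0.49, adjusted p = 0.00744). In the blocked fit cldnb passed as well, with 0.958, 1.17 and 1.05 in r2 and 3.25, 2.17 and 2.58 in r4 (-1.18 ± 0.22, adjusted p = 0.0341).

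Tetraspanin gene cd9b, of a membrane organiser protein, had levels of 2.04, 1.48 and 1.57 in r2 and of 32.1, 18.7 and 16.2 in r4 (-3.67 ± 0.29, adjusted p = 0.000661). The epithelial adhesion gene epcam had 1.08, 1.24 and 0.831 in r2 and 23.6, 5.66 and 10.5 in r4 (-3.43 ± 0.45, adjusted p = 0.00749). For spint2, an epithelial inhibitor of serine proteases, the levels were 1.1, 0.880 and 0.880 in r2 and 7.19, 6.89 and 8.15 in r4 (-2.96 ± 0.25, adjusted p = 0.000765). These 3 genes and cldn7b and cldn3c were called in all 6 fits that left out an array. Outside the lists, esrp1, a splicing factor of epithelial cells, fell by 3.06 ± 0.34 on the log2 scale (0.906 to 0.985 in r2, 4.73 to 11.1 in r4, adjusted p = 0.00235). The desmosome gene pkp1b fell by 2.31 ± 0.29 (0.627 to 0.775 in r2, 2.65 to 4.45 in r4, adjusted p = 0.00576).

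The keratin genes that mark skin were not called. The gene krt5 lay below the median on all 6 arrays, and krt4 had 0.722 to 0.953 in r2 and 0.879 to 1.99 in r4. For krt8 the levels were 1.77 to 2.9 in r2 and 3.83 to 11.1 in r4. They were lower in r2 without overlap, but krt8 did not pass (adjusted p = 0.607, and 0.207 with the block). The skin list summed to 45.7 to 74.4 in r2 and to 97.7 to 191 in r4, sums that include its members that fell. The part of skin, ear or other epithelium in the epithelial group was not tested.

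**Figure D3:**
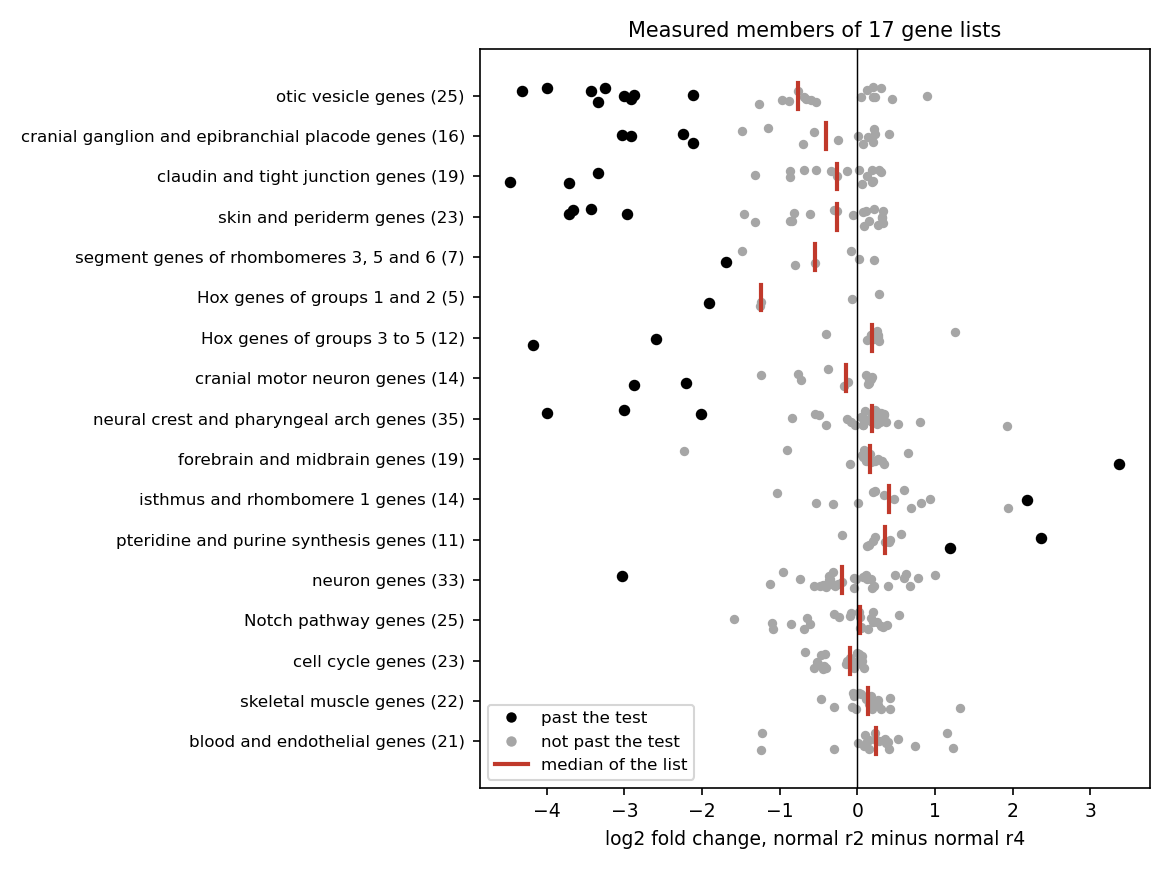
The log2 fold change, normal r2 minus normal r4, of the measured members of 17 gene lists, with 1 point a gene from its only or brightest probe, black where it passed the unblocked test, and a bar at the median of each list. Lists share genes, such as epcam and gata3. Black points lie left of 0 in the first 9 lists and in the neuron genes, and right of 0 in the forebrain and midbrain, the isthmus and rhombomere 1, and the pteridine and purine genes.

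Among 14 cranial motor neuron genes slc18a3a and gata3, the latter also counted among the otic genes, fell and none rose. The share that fell was 14.3% in both fits, against 0.840% of all named genes without the block and 1.55% with it. The gene slc18a3a, which encodes the vesicular acetylcholine transporter of cholinergic neurons, had levels of 0.944, 0.712 and 0.696 in r2 and of 3.34, 3.10 and 4.43 in r4. The r2 arrays were below the median, the difference was -2.20 ± 0.23 (adjusted p = 0.00161), and the call remained in all 6 fits that left out an array (adjusted p of at most 0.0186). General motor neuron genes did not pass: isl2a had 1.86, 1.22 and 1.26 in r2 and 3.43, 1.41 and 1.31 in r4, and alcamb had 32.5 to 56.3 in r2 and 22.7 to 70.0 in r4. The planar polarity gene prickle1b, on which facial motor neurons depend to migrate out of r4, had levels of 6.24, 10.1 and 6.72 in r2 and of 21.3, 13.7 and 21.1 in r4. It did not pass without the block (-1.29 ± 0.26, adjusted p = 0.0741) and fell with it (-1.28 ± 0.19, adjusted p = 0.0107), as the 1 of 11 planar polarity and neuron migration genes. That share was 9.09%, against 1.55% of all named genes that fell with the block.

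Among 35 neural crest and pharyngeal arch genes dlx4b, dlx3b and dlx5a fell and none rose. The calls on dlx4b and dlx3b are also counted among the otic genes. The median difference of the list was 0.19 without the block and 0.08 with it, with 0.01 in experiment 2 and 0.04 in experiment 3. The share that fell was 8.57% in both fits, against 0.840% of all named genes without the block and 1.55% with it. The homeobox gene dlx5a, of arches, ear and forebrain, had levels of 0.808, 0.761 and 0.770 in r2 and of 3.75, 2.24 and 3.73 in r4 (-2.02 ± 0.33, adjusted p = 0.0248). Its call was lost in all fits without 1 array but the one without r4 of experiment 2 (adjusted p up to 0.132). The crest markers sox10 and foxd3 were not called: sox10 was below the median on all 6 arrays, and foxd3 had 2.02, 1.66 and 1.5 in r2 and 2.4, 2.44 and 2.42 in r4. The gene dlx2a, of migrating crest, had 6.42, 16.2 and 15.9 in r2 and 6.28, 5.70 and 8.72 in r4. The list sums overlapped, at 122 to 242 in r2 and 144 to 237 in r4.

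In signalling pathways only single members were called. The 1 gene that fell was 3.45% of the Wnt list and 7.69% of the retinoic acid list in both fits. Each called Fgf gene was 6.67% of its list. Of all named genes 0.168% rose and 0.840% fell without the block, and 0.952% and 1.55% did with it. Single calls do not show that a pathway as a whole differed. Of 29 Wnt pathway genes sfrp2, a secreted Wnt antagonist, fell, with levels of 0.886, 0.925 and 0.994 in r2 and of 5.36, 4.15 and 5.95 in r4 (-2.45 ± 0.37, adjusted p = 0.0150). Of 13 retinoic acid pathway genes raraa, a retinoic acid receptor, fell, with 2.25, 2.63 and 2.13 in r2 and 7.93, 4.78 and 6.1 in r4 (-1.40 ± 0.24, adjusted p = 0.0288). Both calls were kept only without r4 of experiment 2, and adjusted p reached 0.0832 for sfrp2 and 0.209 for raraa in the other fits that left out an array. The retinoic acid degrading enzyme gene cyp26b1, by contrast, had 66.1 to 107 in r2 and 99.6 to 121 in r4, where 1 value lay at the highest of its array, and did not pass. Of 15 Fgf pathway genes fgf8a rose, and dusp2, a phosphatase of MAP kinases, fell in the blocked fit only (5.01, 8.28 and 10.3 in r2, 19.1, 22.6 and 18.2 in r4; -1.44 ± 0.27, adjusted p = 0.0314). Fgf target genes such as spry4 (2.08 to 2.92 in r2, 2.77 to 10.9 in r4) and etv5b (74.2 to 101 in r2, 72.5 to 92.1 in r4) did not pass. None of 25 Notch pathway genes passed either fit.

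Higher in r2 was also the ephrin gene efna5a, a ligand of Eph receptors known from the midbrain, as the 1 of 16 Eph receptor and ephrin genes called. That was 6.25% of the list in both fits. Of all named genes 0.168% rose without the block and 0.952% with it. The levels of efna5a were 34.0, 66.9 and 52.5 in r2 and 13.2, 7.70 and 9.75 in r4. The lowest r2 array stood above the highest r4 array by more than 2-fold, and the difference was 2.3 ± 0.31 (adjusted p = 0.00749, lost without sample 3a at 0.0517 and without sample 3b at 0.0501). The chemokine gene cxcl12b had 4.92, 6.74 and 6.79 in r2 and 2.11, 2.87 and 2.07 in r4 (1.39 ± 0.26, adjusted p = 0.0438), and its call was lost without any 1 array (adjusted p from 0.0507 without r4 of experiment 2 to 0.295 without sample 3b).

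Genes of pteridine and purine synthesis, which supply the pigments of pigment cells among other products, included 2 risers without the block and 3 with it out of 11 measured, and none fell. These shares were 18.2% and 27.3%, against 0.168% and 0.952% of all named genes that rose in the same fits. The gene gch2, a GTP cyclohydrolase at the start of pteridine synthesis, had levels of 4.31, 3.72 and 3.37 in r2, against 0.660, 0.824 and 0.731 in r4. All r4 arrays were under the median, the difference was 2.36 ± 0.22 (adjusted p = 0.000978), and the call remained under all 23 alternatives. The purine synthesis gene atic had 117, 107 and 119 in r2 and 64.3, 40.6 and 47.9 in r4 (1.19 ± 0.22, adjusted p = 0.0446). The value of 107 lay at the highest value of its array, and the call was kept among fits without 1 array only without r4 of experiment 1 (adjusted p up to 0.303 in the others). The gene impdh1b, of guanine nucleotide synthesis, rose in the blocked fit only (27.4, 70.5 and 77.9 in r2, 96.2, 16.7 and 39.1 in r4; 0.82 ± 0.15, adjusted p = 0.0319). Pigment cell genes outside this pathway did not pass: tyr and dct, of melanin synthesis, lay below the median on all arrays, and mitfa had 2.82 to 3.37 in r2 and 1.82 to 4.62 in r4.

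The named probes that rose also included pdzrn3b and iqgap2. The ubiquitin ligase gene pdzrn3b had levels of 19.2, 28.9 and 18.4 in r2 and of 3.82, 7.07 and 4.83 in r4 (2.1 ± 0.33, adjusted p = 0.0177). The scaffold gene iqgap2 had 2.48, 3.01 and 2.15 in r2 and 0.846, 0.943 and 0.888 in r4 (1.5 ± 0.26, adjusted p = 0.0308). Both were separated between the groups, but the call on iqgap2 was lost without any 1 array (adjusted p from 0.0780 without r4 of experiment 2 to 0.191 without sample 3a), and that on pdzrn3b was kept only without r4 of experiment 2 (adjusted p from 0.0612 to 0.111 in the others). Among probes with no symbol the largest rises of the unblocked fit were on probe 861, with levels of 82.2, 103 and 91.7 in r2 and of 10.8, 2.55 and 3.86 in r4 (4.28 ± 0.50, adjusted p = 0.00358), and on probe 13535, with 13.9, 29.6 and 16 in r2 and 2.56, 1.61 and 1.05 in r4 (3.53 ± 0.47, adjusted p = 0.00749).

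By the unblocked fit, the largest falls among the 94 called probes were on 2 probes with no symbol. Probe 15711 had levels of 1.76, 1.82 and 2.27 in r2 and of 61.7, 108 and 112 in r4 (-5.55 ± 0.33, adjusted p = 4.68e-05), with the value of 112 at the highest value of its array, so that this fall is a lower bound. Probe 15733 had 0.952, 1.08 and 0.958 in r2 and 30.2, 17.3 and 30.1 in r4 (-4.66 ± 0.25, adjusted p = 3.48e-05). Both were close to the median in r2 and far above it in r4. They are named by their probe identifier in the deposited table, since the annotation used gives them no gene.

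Falls outside the lists included those of ahcyl1, b3gnt7l, plcd1b and rcan3. The gene ahcyl1, a regulator of calcium release through inositol trisphosphate receptors, had levels of 1.96, 2.9 and 2.29 in r2 and of 66.2, 22.3 and 45.5 in r4 (-4.11 ± 0.38, adjusted p = 0.000978). The glycosyltransferase gene b3gnt7l had 1.08, 1.09 and 1.08 in r2 and 33.1, 10.1 and 10.2 in r4 (-3.80 ± 0.45, adjusted p = 0.00421). The phospholipase C gene plcd1b had 8.03, 6.16 and 3.27 in r2 and 45.3, 33.0 and 48.7 in r4 (-2.94 ± 0.39, adjusted p = 0.00749). These 3 calls, and that on rcan3, a regulator of calcineurin (0.846 to 0.947 in r2, 4.62 to 10.1 in r4; -2.95 ± 0.27, adjusted p = 0.000978), remained in all 6 fits that left out an array.

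Further falls were measured for znf385a (0.656 to 0.805 in r2, 3.71 to 11.4 in r4), efhd1 (0.594 to 0.690 in r2, 3.11 to 8.18 in r4) and slc6a7, a proline transporter (1.14 to 1.25 in r2, 3.82 to 10.7 in r4). Among matrix and secreted proteins, matn4 had 1.48 to 3.32 in r2 and 6.18 to 14.8 in r4, and igfbp3, which binds insulin-like growth factors, had 0.885 to 0.924 in r2 and 2.73 to 4.47 in r4. The carbonic anhydrase gene ca2 had 3.43 to 3.96 in r2 and 11.2 to 20.1 in r4, and the transcription factor gene prdm1a, of neural crest and sensory neurons, had 1.01 to 1.23 in r2 and 2.86 to 7.18 in r4. Falls between -1.21 and -2.36 were also called for lmo7a, lsr, si:dkey-7j14.5, rnf128a, rbm38, myo1eb, tent5ba, macc1 and stard14. Each gene of this group lost its call without r2 sample 3a (adjusted p from 0.0517 for efhd1 to 0.266 for stard14), and over the 6 fits adjusted p reached 0.295, for stard14 without sample 3b. Where a called gene had a second probe, that probe was not called: for hoxb3a, efna5a, cldn7b, dlx3b, ca2 and igfbp3 it lay under the median on all 6 arrays, and for pkp1b it read 1.25 to 1.35 on them. Of the 54 named calls 18 were kept in all 6 fits that left out an array and 36 were lost in at least 1 of them. Over all 94 calls, the number shared was 63, 75 and 44 without r4 of experiment 1, 2 and 3, and 49, 33 and 42 without r2 of experiment 2, sample 3a and sample 3b.

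The 2 experiments with both tissues share no array and were set side by side without a test. In experiment 2, 102 probes were at least 2-fold higher in r2 (0.629%) and 155 at least 2-fold lower (0.955%), and at 4-fold these were 15 (0.0924%) and 46 (0.283%). In experiment 3, 220 were higher (1.36%) and 233 lower (1.44%) at 2-fold, and 25 (0.154%) and 72 (0.444%) at 4-fold. Of the 25 probes higher by 4-fold in experiment 3, 16 (64.0%) were at least 2-fold higher in experiment 2, and of the 72 lower ones 62 (86.1%) were at least 2-fold lower. Read the other way, 10 of the 15 probes higher by 4-fold in experiment 2 (66.7%) were at least 2-fold higher in experiment 3, and 37 of the 46 lower ones (80.4%) were lower. At 4-fold in either experiment, 0 probes went the opposite way by 2-fold in the other.

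Among the called probes the differences were mostly larger in experiment 3, which supplied 2 of the 3 r2 arrays of the test that chose them. The arrays of experiment 2 also had lower upper quartiles, 3.64 for r2 and 3.65 for r4. In experiment 3 these were 4.75 and 4.29 for samples 3a and 3b and 4.19 for r4. The part of either in the sizes was not tested. The 72 lower probes had a median of -1.87 in experiment 2 and -2.52 in experiment 3, and 12 of them differed more in experiment 2. The 22 higher probes had medians of 1.54 in experiment 2 and 2.22 in experiment 3, and 6 differed more in experiment 2. All 94 went the same way in both, a direction that the test on the same arrays largely fixes. Over all probes the differences of the 2 experiments correlated with a Pearson r of 0.486 across probes, which are not independent and share the array they were measured on within an experiment.

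**Figure D4:**
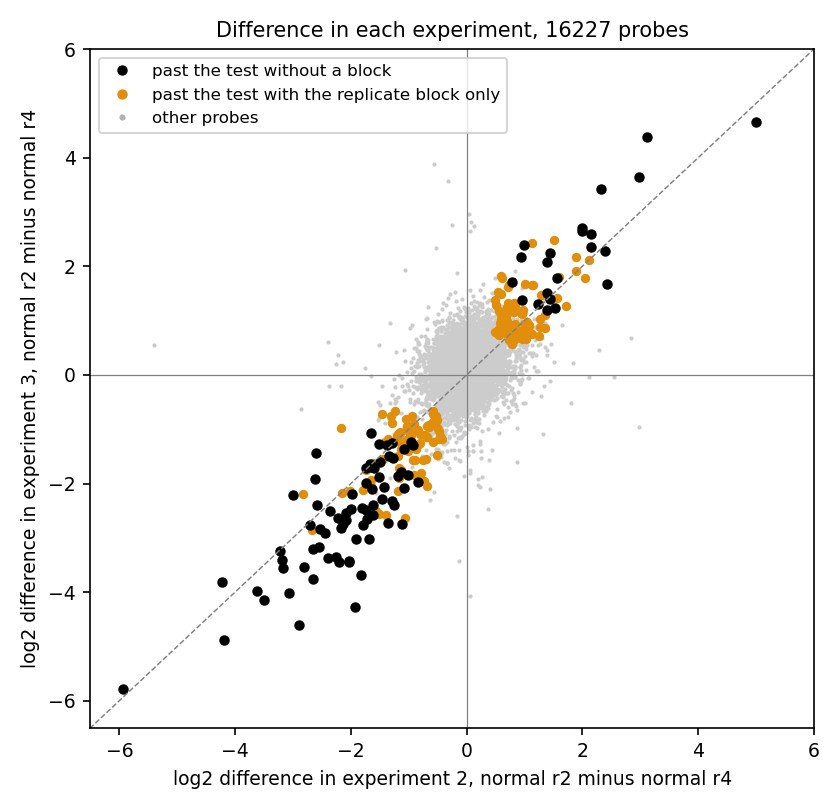
The log2 difference, normal r2 minus normal r4, in experiment 2 (1 array each) against that in experiment 3 (mean of r2 samples 3a and 3b minus r4) for 16227 probes, with the dashed line at equal differences. The 94 probes past the unblocked test (black) and those past the test with the replicate block only (orange) lie in the lower left and upper right, and the black points reach -5.94 in experiment 2 and -5.78 in experiment 3, on probe 15711, whose r4 value in experiment 3 lies at the top of its array's range.

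The blocked fit added 102 higher and 80 lower probes, 44 and 38 of them with 1 gene symbol. Of all 124 higher and 152 lower probes of that fit, 83 and 146 did not overlap between the groups, against 8.76% of all probes. The test on the same arrays largely fixes this separation. Without 1 array of experiment 2 or 3 the blocked fit called 31 to 267 probes higher and 67 to 174 lower. The matricellular protein gene smoc2 had levels of 12.9, 39.2 and 34.3 in r2 and of 15.06, 3.46 and 8.14 in r4, so that r4 of experiment 1 overlapped with r2 of experiment 2. Within experiments its differences were 1.90 and 2.17, and the blocked difference was 2.08 ± 0.19 (adjusted p = 0.000769, against 0.693 without the block). The neuropeptide gene adcyap1b had 23.3, 15.9 and 18.3 in r2 and 11.9, 7.86 and 6.35 in r4 (1.55 ± 0.22 with the block, adjusted p = 0.00811). The neural transcription factor gene pou3f2b had 13.4, 30.3 and 36.1 in r2 and 6.49, 7.60 and 13.2 in r4 (1.11 ± 0.18 with the block, adjusted p = 0.0182).

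The growth factor genes vegfab and vegfaa, which act on blood vessels, were the 2 members of 21 blood and endothelial genes that rose in the blocked fit. Their share was 9.52%, against 0.952% of all named genes. Levels of vegfab were 4.56, 10.3 and 9.18 in r2 and 3.39, 2.32 and 4.24 in r4 (1.15 ± 0.20, adjusted p = 0.0233), and those of vegfaa were 1.27, 1.59 and 1.32 in r2 and 0.756, 0.863 and 0.872 in r4 (0.71 ± 0.14, adjusted p = 0.0464). The groups did not overlap for either gene. Neither encodes a protein of blood or vessel cells, and kdrl and gata1a, which mark vessels and red blood cells, were below the median on all 6 arrays. Other rises with the block were those of stmn2a, of growing axons (17.7, 29.1 and 32.1 in r2, 34.7, 10.8 and 12.1 in r4; 1.02 ± 0.16, adjusted p = 0.0144), itm2cb (45, 59.6 and 54.0 in r2, 28.6, 27.3 and 24.3 in r4; 0.96 ± 0.16, adjusted p = 0.0219) and palm1b (63.4 to 63.9 in r2, 28.9 to 36.5 in r4; 0.92 ± 0.17, adjusted p = 0.0319).

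Falls with the block only included kifc3 and dspa. The kinesin gene kifc3 had levels of 1.74, 1.29 and 1.25 in r2 and of 13.3, 5.77 and 4.31 in r4 (-1.72 ± 0.13, adjusted p = 0.000228). The desmosome gene dspa had 1.45, 2.01 and 1.44 in r2 and 8.07, 3.95 and 4.97 in r4 (-1.41 ± 0.18, adjusted p = 0.00469). For both genes r4 of experiment 1 was the highest array. The transcription factor gene sox4a (5.53 to 6.44 in r2, 14.1 to 29.3 in r4) and the neurofilament gene nefma (0.806 to 1.05 in r2, 1.49 to 2.32 in r4) fell with adjusted p = 0.0169 and 0.0362.

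The gene fabp7a, a lipid-binding protein gene of radial glia, was the 1 of 26 neural progenitor genes that passed a fit. Its levels were 2.03, 1.33 and 1.52 in r2 and 22.5, 2.72 and 3.21 in r4, with r4 of experiment 1 far above the other r4 arrays, and the unblocked difference was -1.86 ± 0.86 (adjusted p = 0.959). With the block it was -0.87 ± 0.17 (adjusted p = 0.0421), and the progenitor share that fell was 3.85%. Of 33 neuron genes neurod1 fell in both fits, nefma fell and stmn2a rose with the block only, and pan-neuronal elavl3 did not pass (11.2, 7.84 and 8.20 in r2, 20.3, 14.3 and 11.6 in r4). Among the neuron genes 3.03% fell without the block, and 3.03% rose and 6.06% fell with it. Among all named genes 0.840% fell without the block, and 0.952% rose and 1.55% fell with it.

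**Figure D5:**
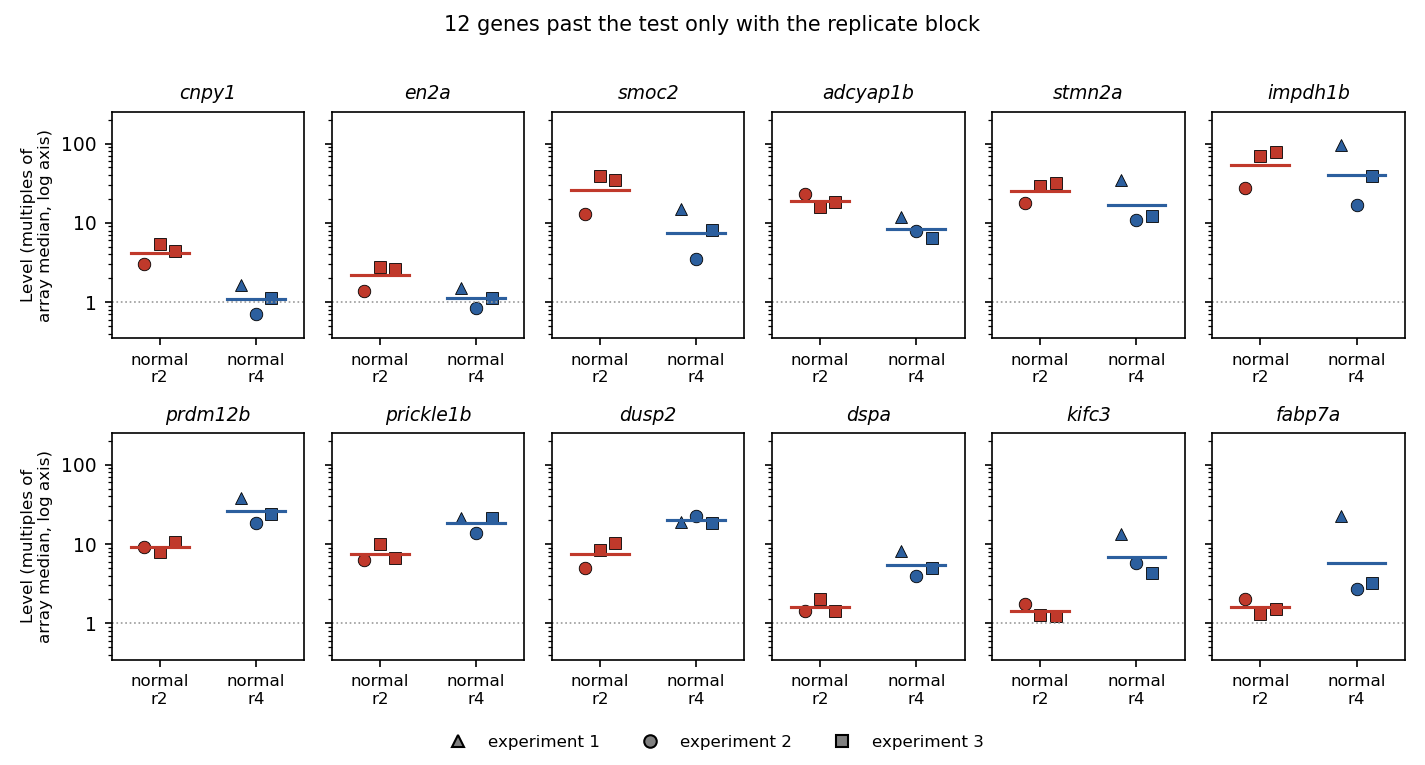
Levels of 12 genes that passed only with the replicate block on each of the 6 arrays, as multiples of the array median on a log axis, with normal r2 left of normal r4 and symbols for the experiment. In the panels of en2a, smoc2, stmn2a and impdh1b r4 of experiment 1 (triangle) overlaps with r2, and in that of fabp7a it lies at 22.5, against 2.72 and 3.21 in the other r4 arrays.

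Lists of other tissues held no call in either fit. These were 22 skeletal muscle genes, 17 heart genes, 16 genes of yolk, endoderm and hatching gland, 19 of floor plate, notochord and Hedgehog signalling, 24 immediate early and stress genes, 23 cell cycle genes, 15 cytosolic ribosomal protein genes and 8 reference genes. With 0.136% of all probes called higher and 0.444% lower, lists of this size would hold few calls at the background rate. The muscle genes ckma and mylpfa and the notochord gene tbxta lay below the median on all 6 arrays. The summed levels overlapped between r2 and r4 for muscle (40.4 to 59.1 in r2, 31.9 to 42.8 in r4) and for blood and vessels (26.4 to 32.6 in r2, 21.6 to 30.7 in r4). They did not overlap for heart genes (24.2 to 32.4 in r2, 9.96 to 19.9 in r4) or for immediate early and stress genes (341 to 361 in r2, 394 to 591 in r4). Nor did they for floor plate, notochord and Hedgehog genes (62.8 to 73.3 in r2, 78.5 to 182 in r4). In this order the median differences of these 3 lists were 0.23, -0.35 and -0.06 without the block and 0.09, -0.12 and 0.02 with it. Of the 17 heart genes 4 had a mean level above 1 in r2 or r4, and their list median was -0.01 in experiment 3. A sum rests mostly on its brightest members, so these sums do not show that the lists as a whole differed. The part of these lists in the results was not tested. The floor plate gene shha had levels of 7.56, 6.72 and 4.95 in r2 and of 38.7, 7.37 and 11.2 in r4, and did not pass.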

How the data were processed

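The authors deposited, per the labels and the file's values, linear ratios to the median of each 1-colour array (array medians 1.002 to 1.006); scanner, background correction, normalization and detection calls were not given in the sources used here. All 9 arrays were used, no column was left out (0 not used), and 172 actb2 control spots were excluded, leaving 16227 of 16399 probes. Symbols came from the platform annotation, updated by gene ID (5907 probes had 1 symbol, 74 several and 10246 none). A gene with several probes is given by its brightest.

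The log2 of the deposited ratio, with no pseudocount, was fitted with limma 3.58.1 in R 4.3.3 on the 3 group means over all 9 arrays (6 residual degrees of freedom, default eBayes, two-sided, Benjamini-Hochberg), also with the experiment as a fixed replicate block (4 residual degrees of freedom). The replicate numbers in the titles name shared experiments, which is where the pairing comes from. Deviations from the group means correlated at 0.53 between r2 and r4 of experiment 2, and at -0.06 and 0.22 between samples 3a and 3b and r4 of experiment 3, against -0.54 to 0.40 between r2 and r4 of different experiments (0.40 for sample 3a and r4 of experiment 1). Deviations from the mean of the same 3 arrays are tied to each other, so these correlations describe the pairing and do not test it. The scripts were tested on simulated data. Alternatives changed the normalization, pseudocount, dim probe filter, variance model, block and the arrays used.

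Members and lists were chosen with earlier results of these data known. The rule for names allowed hoxb1a, prickle1b, probes with 1 symbol past either fit (those of the unblocked fit first), up to 4 further members of a list by level or fold, and the 2 unnamed probes with the largest rise and fall. Of the probes past the blocked fit only, a part is named, chosen after their values were seen. Some genes named as not passing lie outside this rule and were chosen after their values were seen. Some results are not reported here.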

Additional observations from a re-analysis of the deposited data

Results flagged for a closer look

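For cldn3c the difference between normal r2 and normal r4 was itself different between experiments: experiment 3 minus experiment 2 gave -2.34 on the log2 scale (limma, adjusted p = 0.0485), from differences of -4.27 in experiment 3 and -1.93 in experiment 2. It was the 1 probe of the 94 called ones to pass this test, which called 18 probes of 16227 (1199 at an unadjusted p under 0.05) and takes its spread from the samples 3a and 3b alone. The test was added after the data were seen.

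In 2 gene lists the median difference had opposite signs in the experiments, in both r2 samples of experiment 3. For neuron genes it was 0.0114 in experiment 3 and -0.0075 in experiment 2, and for skeletal muscle genes it was -0.0561 in experiment 3 and 0.0260 in experiment 2. These differences between experiments were not tested. Groups of 3 arrays were not searched for single outlying arrays.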

How the results depend on the processing

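No named call reversed under the 23 alternatives, and 14 of the 54 named calls were lost in at most 2 of them. Of these alternatives, the blocked fits without 1 array and the block with log2(value + 1) were added after the data were seen. The 22 higher and 72 lower probes became 124 and 152 with the replicate block (all 94 shared), 167 and 191 with a random block, 211 and 232 with quantile normalization and the block, and 10 and 31 with samples 3a and 3b averaged. Quantile normalization alone gave 54 higher probes (108 lower, 81 shared), which moved the share of lower calls to 66.7%, against 76.6%, and the block moved it to 55.1%. The block over experiments 2 and 3 only gave 40 higher. With log2(value + 1) 27 were lower, and with log2(value + 16) 3 were higher and 1 lower. Leaving out 1 array gave 6 to 17 higher and 27 to 76 lower probes, and with the block, in the order r4 of experiment 2, r2 of experiment 2, r4 of experiment 3, sample 3a and sample 3b, 57, 267, 31, 49 and 41 higher and 174, 140, 67, 116 and 95 lower. The block with log2(value + 1) gave 44 lower. Of the genes called only with the block not all were run through the alternatives, and of those run impdh1b changed sign without r4 of experiment 2 and ranged from -0.21 to 1.06 without 1 array. The cause of these changes was not tested.

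The precision is that of 3 r2 arrays from 2 experiments, and probes under the array median were not separated from background, so that the size of their differences is not settled.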

Other observations

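Single arrays carried some high or low values that entered no call between normal r2 and normal r4. The heart gene cmlc1 was at 3.83 in r2 of experiment 2 only, and its difference between experiments 3 and 2 passed the test of that difference (-2.59, limma, adjusted p = 0.0196). The neural tube gene pax6a had levels of 7.88, 0.452 and 4.09 in r2 and of 35.1, 13.5 and 3.17 in r4, with sample 3a under the array median.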
